A study of Drosophila melanogaster with 9 samples.

Results

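A set of 39 genes was examined whose RNA was abundant in stage 5 embryos mutant for non-stop and scarce in wild-type embryos of the same stage. The genes were chosen by their values. A gene was taken when its mean over the 3 non-stop libraries was at least 10 RPKM (reads per kilobase of gene, scaled to the size of the library) and at least 8 times its mean over the 3 OregonR libraries. Of the 15682 genes in the table, 84 met both conditions. A further clause removed 45 of them, in which replicate 1 of the libraries labelled ataxin-7 was at least 4 times both other replicates of that group, and 39 remained. The difference between non-stop and OregonR is therefore how the genes were found, and it is described here without a test. The choice leaned on OregonR replicate 3, because the same rule without that library took 68 genes, among them all 39.

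RNA was sequenced from hand-sorted Drosophila melanogaster embryos, with 3 replicate libraries for each of 3 genotypes: OregonR (the wild-type strain), a mutant of ataxin-7 and a mutant of non-stop. Both mutated genes encode subunits of the deubiquitinase module of SAGA, a co-activator complex that removes ubiquitin from histone H2B and acetylates histone H3. The ubiquitin protease itself is Non-stop, and Ataxin-7 ties the module to the rest of SAGA. All flies were grown at 25 °C on standard medium, and embryos were collected over 2 h and aged for 1 h. Alleles, crosses and the genotype of the mothers were not given in the sources used here, so it is not known whether the mutant eggs were also made by mutant mothers. For replicates 2 and 3 of the libraries titled ataxin-7 the genotype tag names another gene (ataxin-8 and ataxin-9), and these were grouped by title. Any contrast of ataxin-7 replicate 1 with replicates 2 and 3 is therefore also one between libraries with different tags, and a difference in genotype between them cannot be told apart from a difference between replicates. The 6 OregonR and ataxin-7 libraries carry the experiment number 1013 and the 3 non-stop libraries the number 1190. Since no wild-type library with the second number was analysed here, an effect of genotype and an effect of experiment cannot be told apart for non-stop.

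An insect egg is loaded by its mother with RNA that directs the first divisions. During the maternal-to-zygotic transition this RNA is bound by factors such as Smaug and Pumilio and degraded, while the embryo begins to transcribe its own genome. At stage 5, when the syncytial nuclei are enclosed by membranes, much of the maternal RNA has normally gone and early zygotic genes are near their peak. A transcript that is low in wild-type embryos at this stage and high in a mutant may be one that persists, one that is transcribed, or one that differs between strains, and a level of RNA does not separate these. Fewer cells with an RNA and less of it per cell cannot be told apart in whole embryos either.

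The libraries were compared first. Genes took from 74836563 to 90037595 reads in the OregonR and ataxin-7 libraries and from 36914048 to 39280704 in non-stop, which set the RPKM of 3 reads in a gene of 1 kb between 0.0341 and 0.0767. The targeted gene not had a mean of 54.2 ± 2.30 RPKM (SD, n = 3) in OregonR, and its 3 non-stop libraries had 0.608, 0.662 and 1.11 RPKM. Atxn7 was at 18.9 ± 0.899 RPKM in OregonR and 25.1 ± 3.04 in the libraries labelled ataxin-7 (SD, n = 3 in each group), so the level of its own RNA gave no check of the label, which is kept as the name of the group. Replicates 1 of ataxin-7 and 3 of OregonR stood apart from their groups. The chi-square per degree of freedom of reads was 587 and 784 between ataxin-7 replicate 1 and the others of its group against 49.3 between those others, and 160 and 124 for OregonR replicate 3 against 36.0 between replicates 1 and 2.

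Stage markers differed between the groups as well. The summed level of 33 early zygotic genes (such as ftz, eve and sna) was between 6466 and 6921 RPKM in OregonR, 833, 2400 and 3908 RPKM in the ataxin-7 replicates 1, 2 and 3, and between 531 and 662 RPKM in non-stop. All 32 early zygotic genes tested fell in non-stop against OregonR by limma, with a median log2 fold change of -3.55. The summed level of 37 maternal genes (such as bcd and osk) rose from between 1321 and 1628 RPKM in OregonR to between 3071 and 3331 RPKM in non-stop, and it was 3276 RPKM in ataxin-7 replicate 1 and 2109 and 2024 RPKM in replicates 2 and 3. Of the 35 maternal genes tested, 30 were called higher and 4 lower in non-stop than in OregonR, beside 47.7% of 7280 genes called higher and 35.1% called lower. In the libraries labelled ataxin-7, 13 of 32 were called higher and 1 lower, beside 16% of all genes called higher, and 15 of 30 higher and 1 lower without replicate 1, beside 21%. Markers of follicle cells, fat body and gut were under 1 RPKM in all 9 libraries (14 of 14, 9 of 9 and 14 of 14 genes). For testis, muscle and neuron this held for 15 of 18, 10 of 12 and 7 of 9 genes, so some of those markers reached 1 RPKM. The part of the stage difference in the levels of the 39 genes was not tested.

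**Figure D1:**
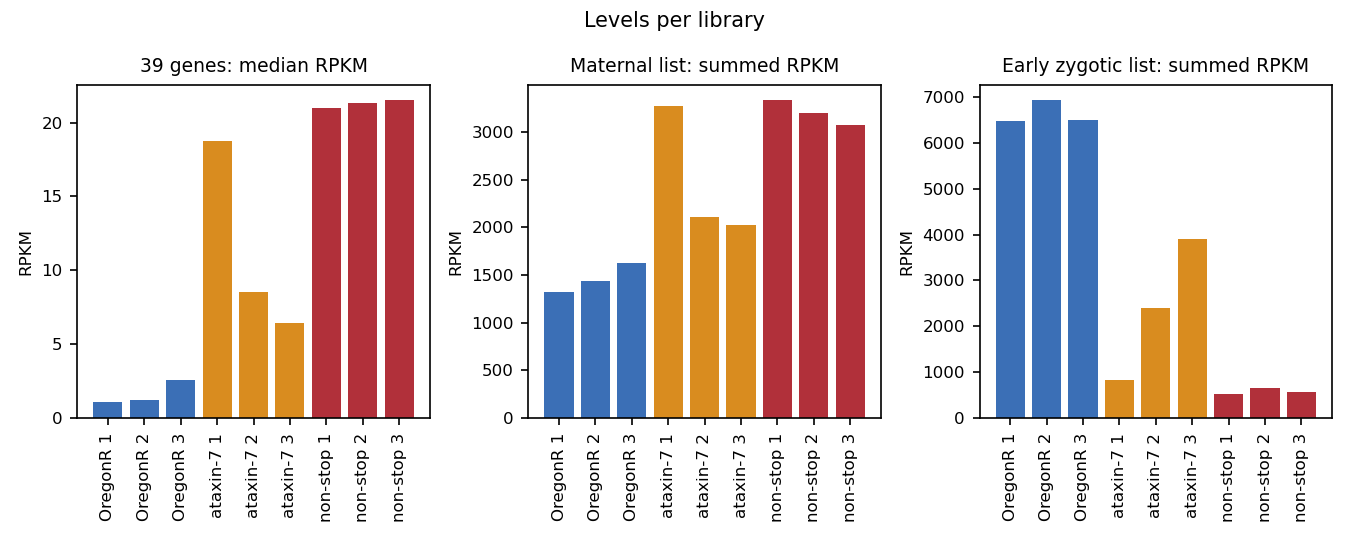
Bars give, for each of the 9 libraries, the median RPKM of the 39 genes (left), the summed RPKM of 37 maternal genes (middle) and the summed RPKM of 33 early zygotic genes (right), with a vertical axis from 0. Ataxin-7 replicate 1 is at 18.7 RPKM in the left panel, near the non-stop libraries at 21.0 to 21.5, and ataxin-7 replicates 2 and 3 lie between them and OregonR in all 3 panels.

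The label of maternal genes was checked against these lists. Only 3 of the 39 genes were in the lists of maternal, oogenesis, eggshell, egg activation and germ plasm genes: swa, mei-P26 and Pp2B-14D. The clause on ataxin-7 replicate 1 had removed several well-known ones, among them osk, BicC, otu, yl, dhd and alphaTub67C. Neither eggs nor ovaries were analysed here, so that the RNA of the 39 genes came from the mother was not measured, and the genes are described by the rule that chose them. A role in the fly is unknown or uncertain for many of them, since 14 have only a CG number as symbol and 2 have no symbol.

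The median of the 39 genes was 1.07, 1.24 and 2.60 RPKM in OregonR replicates 1, 2 and 3. It was 18.7, 8.52 and 6.47 RPKM in ataxin-7 replicates 1, 2 and 3, and 21.0, 21.3 and 21.5 RPKM in the non-stop replicates. Over the 7117 genes with a mean of at least 1 RPKM the medians were between 12.7 and 18.9 RPKM in all libraries. The ratio of non-stop to OregonR had a median of 10.002 (that of CG34195), and it was under 12 for 25 of the 39 genes. At the edge of the rule, mei-P26 (ratio 8.20) and Ugt302C1 (8.22) lay just inside the limit of 8, and GstT2 (7.98) and Dlic (7.84) just outside. CG42598 (10.3 RPKM) and CG34195 (10.6 RPKM) were just above the minimum in non-stop, and Prip (9.84 RPKM) and CG31793 (9.69 RPKM) just below it. At the clause on ataxin-7 replicate 1, Pxt (3.85 times the larger of the other replicates) and UGP (3.82 times) stayed, and CG6276 (4.04 times) and Gk2 (4.05 times) were removed.

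**Figure D2:**
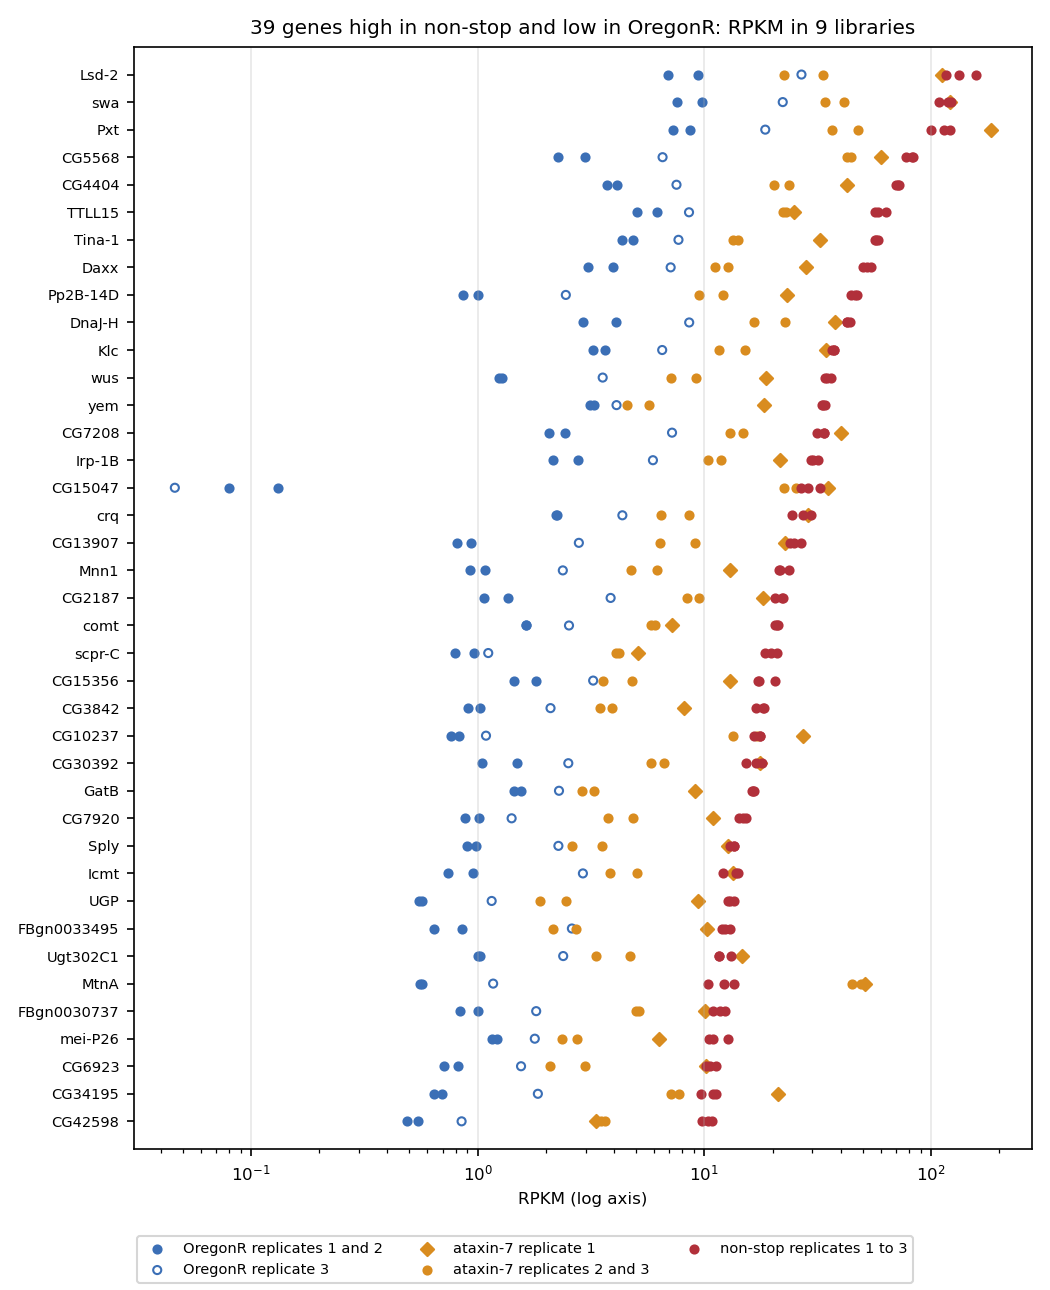
Each row is 1 of the 39 genes, ordered by its mean in non-stop, and each point is its RPKM in 1 library on a log axis. Open blue circles (OregonR replicate 3) lie to the right of the other OregonR points in 38 of 39 rows, and orange diamonds (ataxin-7 replicate 1) to the right of the other ataxin-7 points in 38 of 39.

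Spread within groups was not part of the choice, apart from the clause on ataxin-7 replicate 1. The coefficient of variation over the 3 replicates had a median of 4.68% in non-stop, 46.0% in OregonR and 57.6% in the libraries labelled ataxin-7, where all genes with a mean of at least 1 RPKM had medians of 4.30%, 11.4% and 18.0%. In OregonR the spread came from replicate 3. It was the highest OregonR library for 38 of the 39 genes, where it was the highest for 49.0% of all genes, and it stood at a median of 2.06 times the mean of replicates 1 and 2. CG15047 was the exception. In the libraries labelled ataxin-7, replicate 1 was the highest for 38 of 39 genes (58.1% of all genes) and replicate 3 the lowest for 35 of 39 (40.5% of all genes). OregonR replicate 3 was also the highest OregonR library for 44 of the 45 removed genes.

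Genes of the oocyte and early embryo are given first. The gene swa encodes Swallow, which is needed to anchor bicoid mRNA at the anterior of the oocyte. Its levels were 7.56, 9.80 and 22.2 RPKM in OregonR, 121, 41.5 and 34.0 RPKM in the libraries labelled ataxin-7, and 123, 119 and 108 RPKM in non-stop. Ataxin-7 replicate 1 thus fell among the non-stop values and the other replicates of that group lay between non-stop and OregonR. Pxt, a peroxidase with cyclooxygenase-like activity needed in ovarian follicles, was at 7.30, 8.61 and 18.6 RPKM in OregonR, 184, 47.8 and 36.6 RPKM in ataxin-7, and 122, 114 and 99.99 RPKM in non-stop. Its level in ataxin-7 replicate 1 was the highest of the 9 libraries. The TRIM-NHL protein Mei-P26, which acts in germline differentiation and meiosis, had the lowest ratio of the set. The mei-P26 levels were 1.16, 1.21 and 1.79 RPKM in OregonR, 6.33, 2.74 and 2.35 RPKM in ataxin-7, and 12.8, 10.5 and 10.9 RPKM in non-stop.

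Pp2B-14D encodes a catalytic subunit of calcineurin, the calcium-dependent phosphatase that acts in egg activation and the completion of meiosis. It was at 0.861, 1.00 and 2.45 RPKM in OregonR, 23.1, 12.1 and 9.48 RPKM in the libraries labelled ataxin-7, and 47.3, 44.2 and 46.3 RPKM in non-stop, a ratio of 31.9. No library of one genotype overlapped those of another. Its known partners were less far apart and were no members. CanB2, a regulatory subunit, was at 9.98, 11.3 and 15.8 RPKM in OregonR, 43.7, 27.9 and 24.3 RPKM in ataxin-7, and 45.6, 45.0 and 43.0 RPKM in non-stop, and limma called it higher in both groups than in OregonR (log2 fold changes of 1.28 and 1.79, adjusted p of 0.0169 and 3.32e-05). The calcineurin regulator sra was at 5.15, 6.79 and 8.84 RPKM in OregonR, 10.4, 10.6 and 10.5 RPKM in ataxin-7, and 13.8, 13.1 and 13.1 RPKM in non-stop, and limma called it in non-stop (log2 fold change of 0.88, adjusted p of 0.00192) and not in ataxin-7 (0.56, adjusted p of 0.0864). Of the 25 egg activation and meiosis genes tested, 19 were called higher and 4 lower in non-stop than in OregonR, beside 47.7% and 35.1% of all genes tested.

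Chromatin proteins followed. Yemanuclein (yem) works with Hira to place histone H3.3 on paternal chromatin in the fertilized egg, and Daxx is the fly homologue of another histone H3.3 chaperone. The yem levels were 3.138, 3.26 and 4.10 RPKM in OregonR, 18.4, 5.68 and 4.55 RPKM in ataxin-7, and 33.4, 33.0 and 33.9 RPKM in non-stop. Ataxin-7 replicate 3 thus came close to the highest OregonR library, and the mean of ataxin-7 replicates 2 and 3 was 15.3% of the non-stop mean, the lowest share of the 39 genes. Daxx was at 3.06, 3.94 and 7.10 RPKM in OregonR, 28.1, 12.8 and 11.1 RPKM in ataxin-7, and 54.3, 50.4 and 52.0 RPKM in non-stop, with 2 annotated genes overlapping it on the other strand. Mnn1, the homologue of menin, a partner of trithorax-type methyltransferases, was at 0.928, 1.08 and 2.37 RPKM in OregonR, 12.97, 6.19 and 4.73 RPKM in ataxin-7, and 23.5, 21.3 and 21.5 RPKM in non-stop. For all 3 genes, every non-stop value was above every ataxin-7 value.

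Lipid and membrane genes included the member with the highest mean in non-stop. Lsd-2 encodes a perilipin that coats the lipid droplets stored in the egg. Its levels were 6.89, 9.39 and 26.8 RPKM in OregonR, 112, 33.5 and 22.5 RPKM in ataxin-7, and 158, 133 and 117 RPKM in non-stop. Lsd-2 is 1 of only 2 members in which OregonR and ataxin-7 overlapped, through OregonR replicate 3 and ataxin-7 replicate 3. The scavenger receptor Croquemort (crq), known from the engulfment of dying cells, was at 2.25, 2.21 and 4.35 RPKM in OregonR, 28.6, 8.52 and 6.47 RPKM in ataxin-7, and 29.5, 27.3 and 24.3 RPKM in non-stop. Comatose (comt), the NSF ATPase of vesicle fusion, was at 1.63, 1.64 and 2.53 RPKM in OregonR, 7.19, 6.08 and 5.79 RPKM in ataxin-7, and 21.0, 20.5 and 21.2 RPKM in non-stop. For comt the 3 ataxin-7 libraries were close to each other, unlike for Lsd-2 and crq. Sply (sphingosine-1-phosphate lyase) and Icmt (isoprenylcysteine carboxyl methyltransferase) had non-stop means of 13.3 RPKM each, and ataxin-7 replicate 1 reached 95.2% and 101% of them.

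Among genes of protein folding and transport, DnaJ-H, an Hsp40-type co-chaperone, was at 2.91, 4.07 and 8.57 RPKM in OregonR, 37.6, 22.7 and 16.5 RPKM in ataxin-7, and 42.5, 43.7 and 42.7 RPKM in non-stop. The kinesin light chain gene Klc was at 3.23, 3.65 and 6.52 RPKM in OregonR, 34.6, 15.1 and 11.6 RPKM in ataxin-7, and 37.3, 37.4 and 36.5 RPKM in non-stop. The gene wus (Wurst, a transmembrane protein with a J domain) was at 1.28, 1.24 and 3.56 RPKM in OregonR, 18.7, 9.17 and 7.11 RPKM in ataxin-7, and 34.1, 36.1 and 34.6 RPKM in non-stop. These 3 genes had the order of the set as a whole, with non-stop above ataxin-7 replicate 1, replicate 1 above replicates 2 and 3, and these above OregonR. In the tubulin tyrosine ligase-like gene TTLL15 the step from ataxin-7 replicate 1 to replicates 2 and 3 was small. It was at 5.04, 6.18 and 8.56 RPKM in OregonR, 24.8, 22.3 and 22.8 RPKM in ataxin-7, and 63.5, 58.4 and 56.6 RPKM in non-stop.

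Of the genes of metabolism, UGP, which makes UDP-glucose, was at 0.568, 0.550 and 1.15 RPKM in OregonR, 9.39, 2.46 and 1.88 RPKM in ataxin-7, and 12.9, 13.5 and 12.7 RPKM in non-stop. GatB, a subunit of the mitochondrial glutamyl-tRNA amidotransferase, was at 1.44, 1.55 and 2.28 RPKM in OregonR, 9.08, 3.27 and 2.88 RPKM in ataxin-7, and 16.3, 16.2 and 16.5 RPKM in non-stop. Ataxin-7 replicates 2 and 3 thus stood at 16.6% and 18.8% of the non-stop mean for UGP and GatB. The UDP-glycosyltransferase gene Ugt302C1 was higher in ataxin-7 replicate 1 (14.7 RPKM) than in the non-stop libraries (13.1, 11.6 and 11.6 RPKM). Its ataxin-7 replicates 2 and 3 were lower, at 4.71 and 3.34 RPKM, and OregonR was at 1.02, 1.01 and 2.38 RPKM. Irp-1B, an aconitase-like iron regulatory protein, was at 30.5 ± 1.15 RPKM in non-stop and 3.62 ± 2.02 RPKM in OregonR (SD, n = 3 in each group). Its ataxin-7 replicates 1, 2 and 3 were at 21.6, 11.8 and 10.4 RPKM.

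Most of the remaining members are known only by a CG number or an identifier. CG4404 was at 3.71, 4.13 and 7.54 RPKM in OregonR, 42.6, 23.7 and 20.2 RPKM in ataxin-7, and 71.7, 71.9 and 70.2 RPKM in non-stop. Tina-1 was at 4.34, 4.86 and 7.69 RPKM in OregonR, 32.3, 14.02 and 13.4 RPKM in ataxin-7, and 57.2, 58.6 and 56.7 RPKM in non-stop. These are among the 8 members with a non-stop mean of at least 50 RPKM, and their groups did not overlap. CG13907 was at 0.813, 0.935 and 2.80 RPKM in OregonR, 22.6, 9.05 and 6.35 RPKM in ataxin-7, and 26.7, 24.9 and 23.9 RPKM in non-stop. CG34195 was at 0.698, 0.642 and 1.84 RPKM in OregonR, 21.2, 7.74 and 7.12 RPKM in ataxin-7, and 10.9, 11.3 and 9.66 RPKM in non-stop, so its ataxin-7 replicate 1 stood well above all 3 non-stop libraries. CG42598 was at 0.486, 0.546 and 0.849 RPKM in OregonR, 3.33, 3.50 and 3.66 RPKM in ataxin-7, and 9.80, 10.4 and 10.8 RPKM in non-stop. It is the only member whose ataxin-7 replicate 1 was not the highest of its group. In FBgn0033495, OregonR replicate 3 (2.60 RPKM) was above ataxin-7 replicate 3 (2.15 RPKM), and its non-stop libraries had 12.9, 11.97 and 12.4 RPKM. The last 8 (CG7208, CG2187, CG15356, CG3842, CG30392, CG7920, FBgn0030737 and CG6923) had OregonR values from 0.709 to 7.20 RPKM and non-stop values from 10.2 to 33.8 RPKM, and in each of them all ataxin-7 values lay above all OregonR values.

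The position of the libraries labelled ataxin-7 between the other groups differed between genes. Relative to the non-stop mean of each gene, the median level was 82.6% in ataxin-7 replicate 1, 33.2% in replicate 2 and 27.6% in replicate 3. Over all genes with a mean of at least 1 RPKM these medians were 109%, 85.9% and 87.8%. Replicate 1 lay below the 3 non-stop values for 27 of the 39 genes, among them for 5 and above them for 7 (CG10237, CG15047, CG34195, CG7208, MtnA, Pxt and Ugt302C1). Over all genes with a mean of at least 1 RPKM it lay below for 34.4%, among them for 10.1% and above for 55.5%. Among the 45 genes removed by the clause, replicate 1 lay below the 3 non-stop values for 9, among them for 2 and above them for 34. The 39 members were chosen for high non-stop values and kept only where replicate 1 was not far above replicates 2 and 3. Both parts of the choice favour a lower replicate 1. The mean of replicates 2 and 3 was under 25% of the non-stop mean for 16 genes and over 50% for only 5: CG5568 (53.4%), CG34195 (70.0%), CG15047 (81.7%), CG10237 (88.2%) and MtnA (391%). All 3 non-stop values were above both of these replicates for 37 of 39 genes, beside 55.7% of all genes tested, and the exceptions were CG10237 and MtnA.

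**Figure D3:**
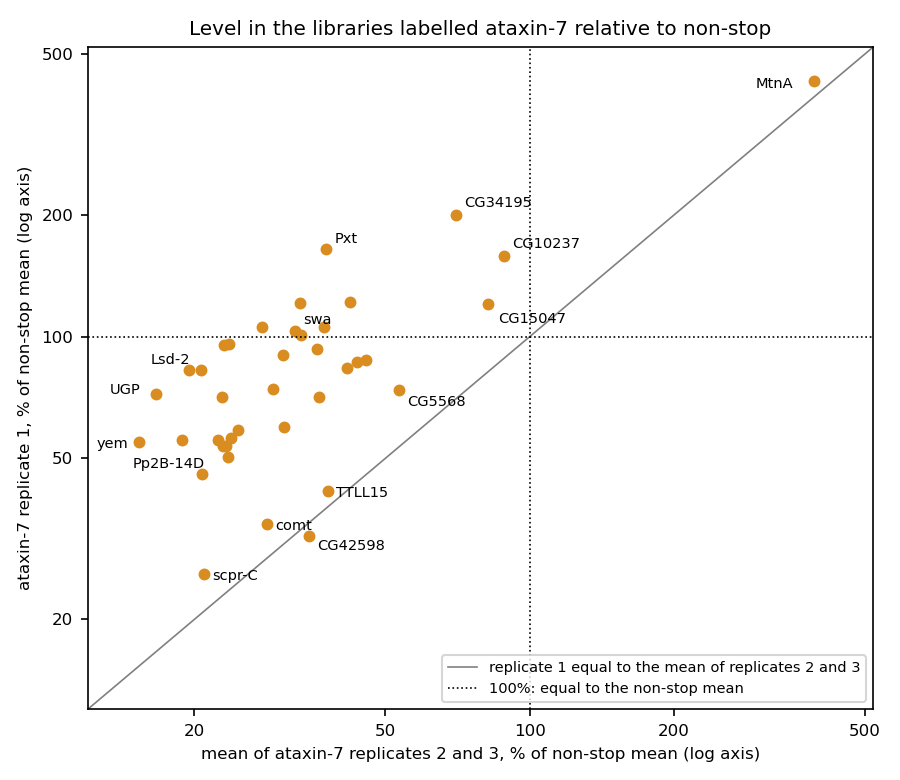
Each point is 1 of the 39 genes, with the mean of ataxin-7 replicates 2 and 3 on the horizontal axis and ataxin-7 replicate 1 on the vertical axis, both as a percent of the gene's non-stop mean on log axes. Most points lie above the diagonal and below 100%, comt, scpr-C, TTLL15 and CG42598 lie on or near the diagonal, and MtnA stands alone above 100% on both axes.

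In 7 genes, counted after their values were seen, ataxin-7 replicate 1 was under 1.5 times the larger of replicates 2 and 3. These were CG42598, MtnA, TTLL15, comt, scpr-C, CG5568 and CG15047. MtnA encodes a metallothionein, a small protein that binds copper and other metals. It was at 0.570, 0.554 and 1.17 RPKM in OregonR, 51.4, 49.2 and 44.8 RPKM in ataxin-7, and 10.3, 12.2 and 13.5 RPKM in non-stop. MtnA is the only member with every ataxin-7 value above every non-stop value, an order that 26.4% of all genes tested had. CG15047 had the widest ratio, 340, on few OregonR reads. It was at 0.132, 0.0798 and 0.0461 RPKM in OregonR (6, 4 and 2 reads), 35.1, 25.3 and 22.5 RPKM in ataxin-7, and 26.7, 28.7 and 32.3 RPKM in non-stop.

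CG5568 and CG10237 were also among the 5 members over 50% of the non-stop mean. CG5568 was at 2.26, 2.96 and 6.54 RPKM in OregonR, 59.9, 42.4 and 44.2 RPKM in ataxin-7, and 83.0, 82.3 and 77.8 RPKM in non-stop. Its neighbour CG18586 overlaps it on the same strand and had 1.95 to 4.25 RPKM in OregonR and 13.6 to 16.6 RPKM in non-stop, so reads may be shared. CG10237 was at 0.827, 0.764 and 1.09 RPKM in OregonR, 27.3, 17.1 and 13.4 RPKM in ataxin-7, and 17.6, 17.5 and 16.6 RPKM in non-stop. At the other end, scpr-C, of a family of secreted cysteine-rich proteins, was at 0.798, 0.963 and 1.11 RPKM in OregonR, 5.10, 4.08 and 4.19 RPKM in ataxin-7, and 19.7, 21.0 and 18.5 RPKM in non-stop. Its related copies had the same order at lower levels, with scpr-A at 1.71 to 2.04 RPKM and scpr-B at 3.99 to 4.62 RPKM in non-stop and both between 0.134 and 0.369 RPKM in OregonR, and how reads common to the copies were counted was not given in the sources used here.

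The groups labelled ataxin-7 and OregonR were then compared by limma on log2(RPKM + 1). The OregonR libraries had also chosen the genes, so higher values in this comparison are favoured by the choice and are not independent of it. The clause on ataxin-7 replicate 1 had removed genes with uneven ataxin-7 libraries, which favours calls among the genes kept. Of the 43 removed genes tested, 1 was called higher and 0 lower, with a median log2 fold change of 1.60. Over the removed genes the coefficient of variation in ataxin-7 had a median of 132%. All 39 genes passed the filter of at least 1 RPKM in 3 libraries, but 17 of them only through the ataxin-7 libraries, and calls were made for 13 of these and 16 of the other 22. Of the 39, 29 were called higher and 0 lower, beside 16% of 7049 genes called higher and 16.4% called lower, and the 10 others had adjusted p-values up to 0.151. The log2 fold changes were between 0.93 and 4.82 with a median of 1.77, and the median over all genes tested was 0.05. All 3 ataxin-7 values were above all 3 OregonR values for 37 genes, beside 30.1% of all genes tested, with Lsd-2 and FBgn0033495 as exceptions. The count of calls rested on single libraries. It was 34 of 37 genes tested without ataxin-7 replicate 1 (21% of all genes tested) and 10 of 37 without ataxin-7 replicate 2. It was 8 of 39 without OregonR replicate 1 and 6 of 39 without OregonR replicate 2. Calls over all genes in either direction were 590 of 6920 without ataxin-7 replicate 2 (48.3% of them higher). They were 311 of 6863 without OregonR replicate 1 (71.7% higher) and 201 of 6862 without OregonR replicate 2 (75.1% higher). In the main fit they were 2285 of 7049 (49.3% higher). The fold change stayed above 0 for every member tested in each of these fits.

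The widest differences were those of MtnA (log2 fold change of 4.82, SE 0.20, adjusted p of 0.000225 by limma), CG15047 (4.70, SE 0.22, adjusted p of 0.000342), CG5568 (3.42, SE 0.33, adjusted p of 0.00259) and CG10237 (3.36, SE 0.28, adjusted p of 0.00167). MtnA, CG15047 and CG10237 are among the 17 genes that passed the filter only through the ataxin-7 libraries. Their higher values in ataxin-7 were favoured by how they were chosen and filtered, and their p-values are no independent support. Pp2B-14D, also among these 17 genes, had a log2 fold change of 2.67 (SE 0.39, adjusted p of 0.00806 by limma). Differences were smallest for mei-P26 (0.93, SE 0.33, adjusted p of 0.0739), yem (1.00, SE 0.48, adjusted p of 0.151) and GatB (1.01, SE 0.39, adjusted p of 0.0928), none of which passed the test by limma. Lsd-2 also missed it, with a log2 fold change of 1.78 and the largest standard error of the set (SE 0.69, adjusted p of 0.094 by limma). Its 3 ataxin-7 libraries were between 22.5 and 112 RPKM.

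**Figure D4:**
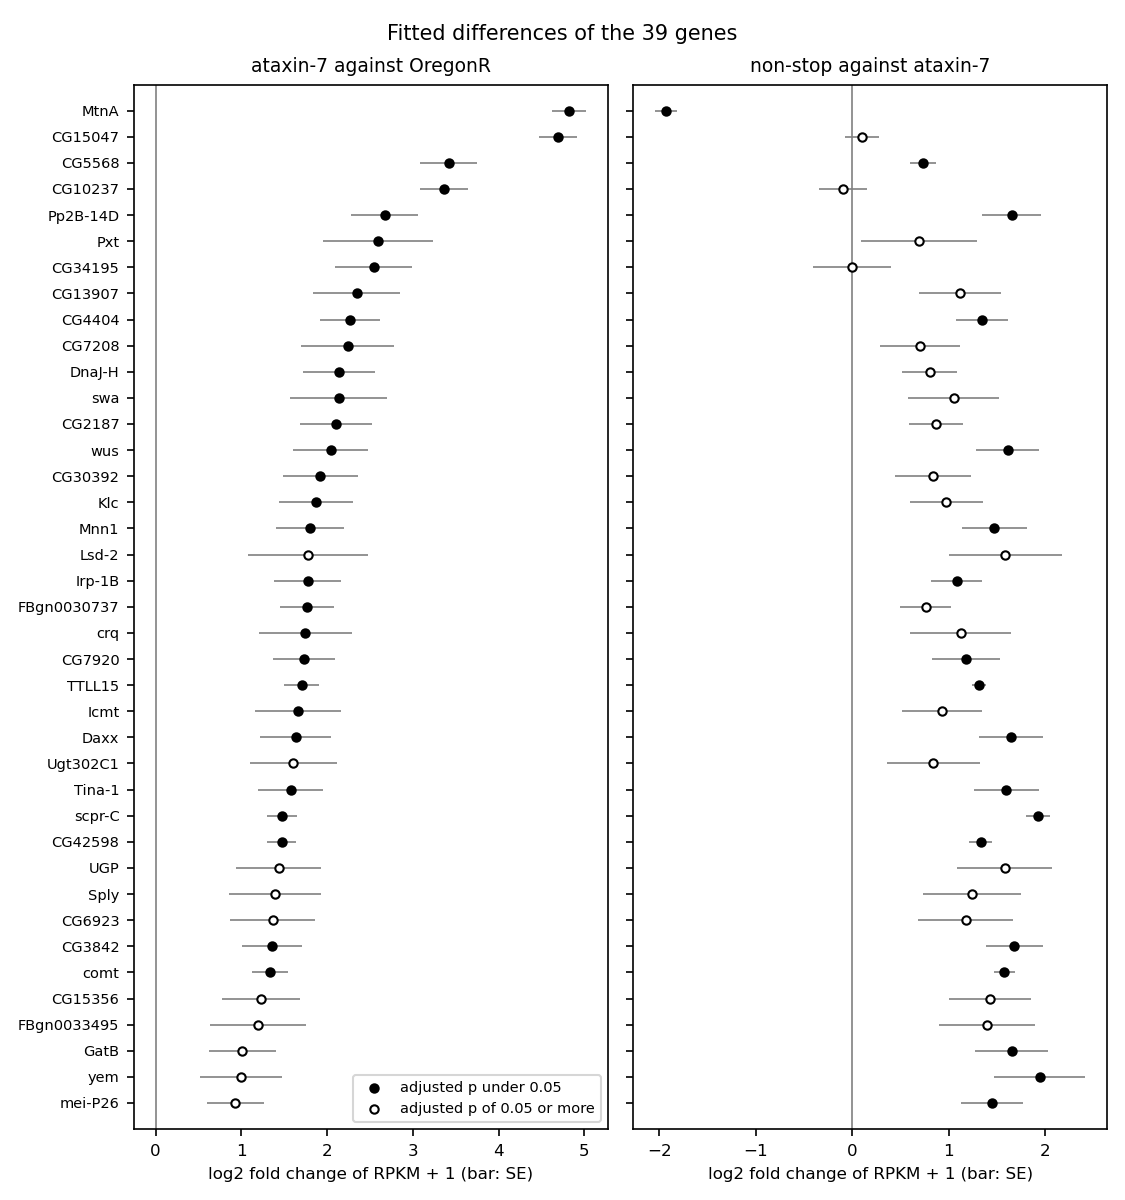
Points are the log2 fold changes fitted by limma for the 39 genes in ataxin-7 against OregonR (left) and in non-stop against ataxin-7 (right), with bars of 1 SE, filled where the adjusted p was under 0.05 and in the same gene order in both panels. All 39 points are above 0 on the left, and MtnA, at -1.93, is the only filled point below 0 on the right.

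Non-stop was compared with the libraries labelled ataxin-7 in the same way. Here the non-stop libraries had chosen the genes and the experiments differed too. The clause had also removed genes in which ataxin-7 replicate 1 was far above the others of its group, which favours calls and separate values among the genes kept. Of the 45 removed genes, 3 were called higher and 0 lower in non-stop, with a median log2 fold change of 1.43. All 3 non-stop values were above all 3 ataxin-7 values for 9 of these 45. Limma called 17 of the 39 genes higher and 1 lower in non-stop, beside 15.5% of 6968 genes called higher and 16.7% called lower, with a median log2 fold change of 1.18 against 0.12 over all genes tested. All 3 non-stop values were above all 3 ataxin-7 values for 27 genes, beside 27.3% of all genes tested. The count of genes called higher was 37 without ataxin-7 replicate 1, when 52.7% of all genes tested were also called higher. It was 10 without ataxin-7 replicate 3 and 4 without ataxin-7 replicate 2 or any 1 of the non-stop replicates. Calls over all genes in either direction were 1434 of 6865 without ataxin-7 replicate 3 (47.1% of them higher). They were 898 of 6862 without ataxin-7 replicate 2 (40.6% higher). Without non-stop replicate 1, 2 or 3 they were 749 of 6901, 778 of 6892 and 770 of 6901 (37.0%, 37.5% and 34.8% higher). In the main fit they were 2241 of 6968 (48.1% higher).

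Genes with even ataxin-7 libraries had the smallest p-values in this comparison. They were TTLL15 (log2 fold change of 1.32, SE 0.07, adjusted p of 0.000688 by limma), scpr-C (1.93, SE 0.13, adjusted p of 0.00103), comt (1.58, SE 0.11, adjusted p of 0.00117) and CG42598 (1.33, SE 0.12, adjusted p of 0.00172). MtnA was the gene that was lower in non-stop (log2 fold change of -1.93, SE 0.11, adjusted p of 0.000796 by limma). The largest increase was that of yem (1.94, SE 0.48, adjusted p of 0.0298 by limma). Pxt (0.69, SE 0.60, adjusted p of 0.401), CG15047 (0.10, SE 0.18, adjusted p of 0.683), CG10237 (-0.09, SE 0.25, adjusted p of 0.794) and CG34195 (-0.00, SE 0.40, adjusted p of 0.993) did not pass the test by limma. For Pxt the ataxin-7 libraries ranged from 36.6 to 184 RPKM and for CG34195 from 7.12 to 21.2 RPKM, which takes in their non-stop values.

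Properties outside the rule were read from the annotation. All 37 of the genes found in BDGP6 are protein coding, as were 95.9% of all genes with a mean of at least 1 RPKM. Arm 3R holds 12 of them (32.4%, beside 23.7% of all such genes), arm X holds 9 (24.3%, beside 16.9%), arms 2L and 3L hold 6 each (16.2%, beside 19.0% and 19.3%) and arm 2R holds 4 (10.8%, beside 19.9%). The gene length that underlies the RPKM had a median of 3282 bp, beside 2402 bp for all such genes, and ranged from 581 bp for CG15047 to 26055 bp for mei-P26. For 26 of the 34 genes with introns (76.5%, beside 84.3% of all such genes with introns) this length was within 5% of the genomic span. The RPKM of these genes is therefore divided by introns as well as exons. Another annotated gene overlaps 15 of the 37 (40.5%, beside 55.1%), on the same strand for 3: CG5568, CG15047 and crq. These shares are descriptions of a list chosen by its values and were not tested.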

How the data were processed

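The authors deposited 1 table of RPKM for 15682 FlyBase genes in 9 libraries (polyadenylated RNA, stranded libraries). The submitters' processing notes name build dm3, CASAVA 1.8.2, TopHat2 2.0.13 and edgeR 3.14.0. The counting tool, gene lengths and use of strand were not given in the sources used here. For 99.9% of the 13809 genes above 0, the 9 deposited RPKM values were whole reads divided by a whole length and a library size rescaled by 0.958 to 1.07 (tolerance 3e-13), which gave the depth. The recovery and the fit were checked on simulated data, where false calls of the fit exceeded the threshold of 0.05. Symbols, arms, biotypes and overlaps came from Ensembl release 115 (BDGP6). Since the builds differ, coordinates and sequences are not given.

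Genes with at least 1 RPKM in at least 3 libraries of a comparison were tested with limma 3.58.1 (R 4.3.3; lmFit and eBayes with trend, two-sided) on log2(RPKM + 1), the 2 groups compared only, with Benjamini-Hochberg adjustment over all genes tested and a threshold of 0.05. Alternatives were a pseudocount of 0.1, no filter, quantile normalization, median-of-ratios scaling, all 3 groups in 1 fit, the replicate number as a block, other limits of the rule and leaving out each replicate. Fold changes on this scale understate those of low genes. P-values measure the spread between libraries, which the labels call biological triplicates. Every pair of replicates differed by more than sampling noise (chi-square of reads from 8.35 to 784 per degree of freedom), so each library counted as 1 sample. Depth floors cover counting error only.

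The genes and lists were chosen with earlier results of these data known. Genes were named if they were among the 10 highest in non-stop or in ratio, in a list, among the 5 highest or lowest by the share of the non-stop level in ataxin-7 replicates 2 and 3, or next to a limit of the rule. Others with a known role (such as Klc, crq, Mnn1, comt, Irp-1B, Icmt and Sply) were named after their values were seen. Of the other lists, in non-stop against OregonR 20 of 30 oogenesis genes were called higher and 5 lower, 7 of 8 eggshell and yolk uptake genes higher and 1 lower, 10 of 14 germ plasm genes higher and 3 lower, and 5 of 15 detoxification and stress genes higher and 5 lower, beside 47.7% higher and 35.1% lower of all genes tested. The oogenesis counts include sqh, a gene of another name that was matched to the listed squ and is among the 5 called lower. In that comparison 1 of 8 late zygotic genes was called higher and 6 lower, 1 of 3 testis genes higher and 2 lower, 0 of 2 muscle genes higher and 1 lower, and 1 of 2 neuron genes higher and 1 lower.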

Additional observations from a re-analysis of the deposited data

How the results depend on the processing

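For ataxin-7 against OregonR, 2285 genes were called, and leaving out 1 replicate gave from 201 to 3541 calls in all and from 6 to 34 of the 39 genes. With the replicate number as a block, 471 genes in all and 8 of the 39 were called. In non-stop against ataxin-7, 2241 genes were called, from 749 to 5550 without 1 replicate, with 4 to 37 of the 39 called higher, and 1383 genes with the replicate block. For same-numbered samples the correlations of deviations were 0.02, 0.06 and -0.06 between ataxin-7 and OregonR, -0.24, 0.11 and -0.11 between non-stop and OregonR, and 0.37, -0.12 and 0.44 between non-stop and ataxin-7. Not every pair was over 0.1 in any comparison, so the samples were taken to share only a number. All other counts stayed within 1.5 times. The rule took from 28 to 68 genes without 1 replicate, 232 with a ratio of at least 4, 9 with a ratio of at least 16 and 21 with a non-stop mean of at least 20 RPKM. After quantile normalization it took 31 genes, 21 of them among the 39. For single genes, the log2 fold change of non-stop against ataxin-7 changed sign for CG10237 (from -0.31 to 0.18 without 1 replicate, the highest without ataxin-7 replicate 1), CG15047 (from -0.030 to 0.28 without 1 replicate, the lowest without ataxin-7 replicate 3, and -0.018 after quantile normalization) and CG34195 (from -0.26 to 0.46 without 1 replicate, above 0 without ataxin-7 replicate 1 and, at 0.056, without non-stop replicate 3, and 0.0069 with a pseudocount of 0.1). The cause was not tested. For ataxin-7 against OregonR, none of the named genes changed sign under any alternative run. Quantile normalization moved the median log2 fold change of all genes in non-stop against OregonR from 0.17 to 0.055, and all 39 genes stayed above 0. The lists without ataxin-7 replicate 1 were an alternative chosen after seeing the data. Non-stop libraries held fewer reads than the others, but no member had under 258 reads in any of them, and the lowest sum over the OregonR libraries was 12 reads (CG15047).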
